A study of Mus musculus with 6 samples.

Results

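NF-kappaB is a family of 5 transcription factor subunits, and the genes described here are those subunits (Nfkb1, Nfkb2, Rel, Rela and Relb), 4 regulators that restrain or redirect them (Nfkbia, Nfkbiz, Tnfaip3 and Bcl3) and Tnf, a cytokine that both activates NF-kappaB and is made under its control. The 10 genes were chosen by name, and their probes were those whose gene name in the array files is one of the 10: 14 of 41174 probes, with every gene on the array. Of these, 9 genes and 13 probes were bright enough to be tested, among 17778 of 27343 genes tested in all. In resting cells the subunits are held in the cytoplasm by I-kappaB proteins. Tumour necrosis factor, interleukin-1 and Toll-like receptor ligands lead to phosphorylation and loss of the I-kappaB proteins, and the freed dimers enter the nucleus and bind kappaB sites. Several targets encode the pathway's own inhibitors, so their transcripts are often used as readouts of recent activity. In skin, the pathway acts in keratinocytes and in infiltrating immune cells, and I-kappaB-zeta, the product of Nfkbiz, is known as a mediator of interleukin-17 and interleukin-36 responses in psoriasis.

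The study treated the shaved backs of female C57BL/6J mice aged 6 to 8 weeks and measured whole-skin RNA on 1-colour Agilent arrays. The imiquimod group (n = 3) received 62.5 mg of cream with 5% imiquimod, a Toll-like receptor 7 agonist used to model psoriasis, each day for 7 days. The vehicle group (n = 3) received the same amount of cream without the drug. No allele or agent other than the creams is named in the labels, which do not say whether the replicates of a group came from separate mice. The p-values therefore rest on the variation among these 6 samples, part of which may be technical. Each scanner file was filed under a sample whose title gives the opposite treatment, in 6 of 6 files. Each file nearly matched in rank the value-table column of the sample titled with the treatment in the file's own name (Spearman correlation at least 0.9999996, against 0.943 to 0.953 for the column it was filed under), so that treatment is used here. Reading the files as they were filed would turn every sign below. All 10 tested genes of a list known to rise in imiquimod-treated skin were higher in the arrays called imiquimod here, the 2 brightest being Krt16, a stress keratin (4.54 ± 0.66 SE on the log2 scale), and S100a9 (5.79 ± 0.85 SE); this list was itself chosen with earlier results known. Of the 3 vehicle arrays, 2 (arrays 2 and 3) were marked for evaluation by the extraction software's quality report, and slide 1 held imiquimod array 1 with the 3 vehicle arrays while slide 2 held imiquimod arrays 2 and 3. Arrays of the imiquimod group correlated at 0.992 with each other, arrays of the vehicle group at 0.960 to 0.983, and arrays of different groups at 0.942 to 0.954.

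Of the 9 tested genes, 3 rose in imiquimod-treated skin (Bcl3, Nfkb2 and Rela), 0 fell and 6 did not pass, at an adjusted p under 0.05 in limma, a linear model fitted across all genes. By this rule 23.6% of all tested genes were called, 13.1% higher and 10.5% lower. All 3 imiquimod arrays lay above all 3 vehicle arrays for 4 of the 9 genes (the 3 called and Tnf), against 25.9% of all tested genes, and none lay wholly below, against 20.7%. At an unadjusted p under 0.05 in limma, 4 of the 9 were higher (the same 4) and 0 lower. In either direction, 6937 of all 17778 tested genes were under this threshold. The median difference over the 9 genes was 0.43 on the log2 scale, and that over all tested genes was 0.023. The largest difference was in Bcl3, at 3.46-fold. The inhibitor gene Nfkbia, a widely used readout of NF-kappaB activity, showed overlapping groups and a difference of -0.14. The calls for Nfkb2 and Rela were lost in 12 and 13 of 18 alternative analyses, and the Bcl3 call in 3. The number that rose was 1 with slide as a block, where 541 genes of the whole table were higher, against 2330 in the main analysis. Within slide 1, where 1 imiquimod array met 3 vehicle arrays, the differences of Bcl3, Nfkb2 and Rela were 2.32, 0.84 and 0.47. Slide 2 held no vehicle array, so every difference with slide as a block equals that within slide 1 and is not a second estimate. The RNA came from whole skin, so a higher number of cells of a type and more RNA per cell cannot be told apart.

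**Figure D1:**
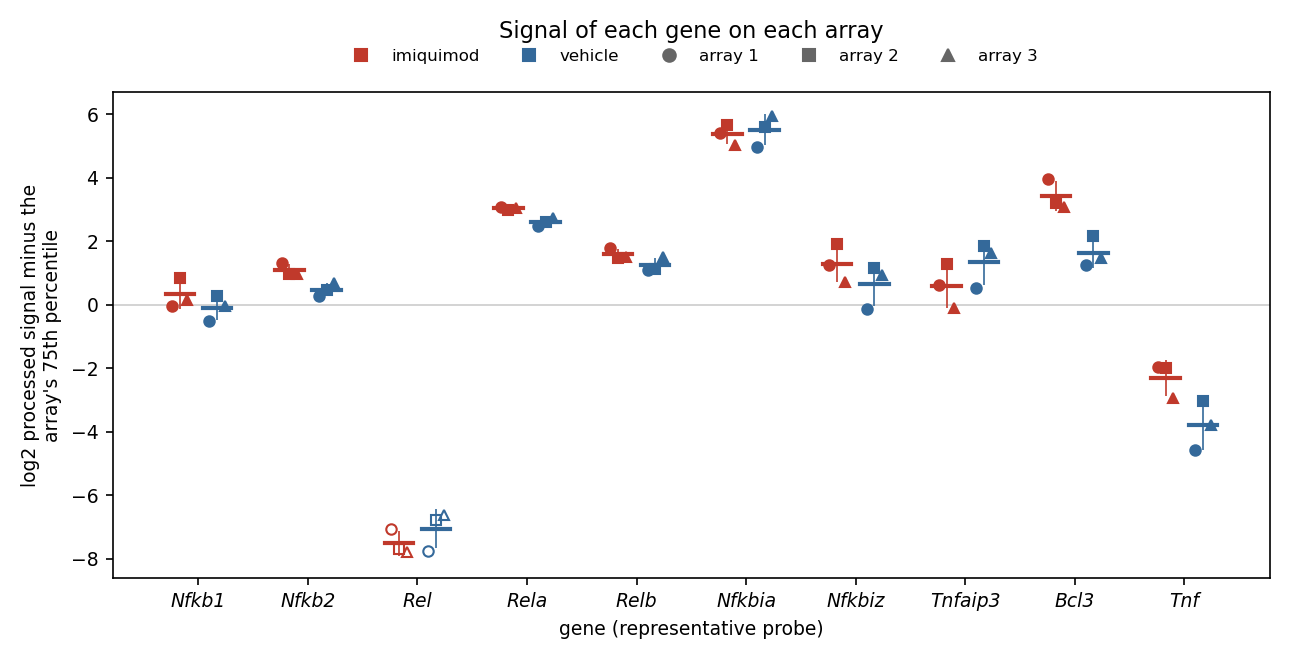
Log2 processed signal minus the array's 75th percentile (vertical axis) for the representative probe of each gene (horizontal axis), with the 3 imiquimod arrays in red left of the 3 vehicle arrays in blue. Symbols are single arrays, horizontal bars are group means and vertical lines are 1 SD; open symbols mark Rel, which was not above background on any array. Bcl3, Nfkb2, Rela and Tnf show no overlap between the groups.

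**Figure D2:**
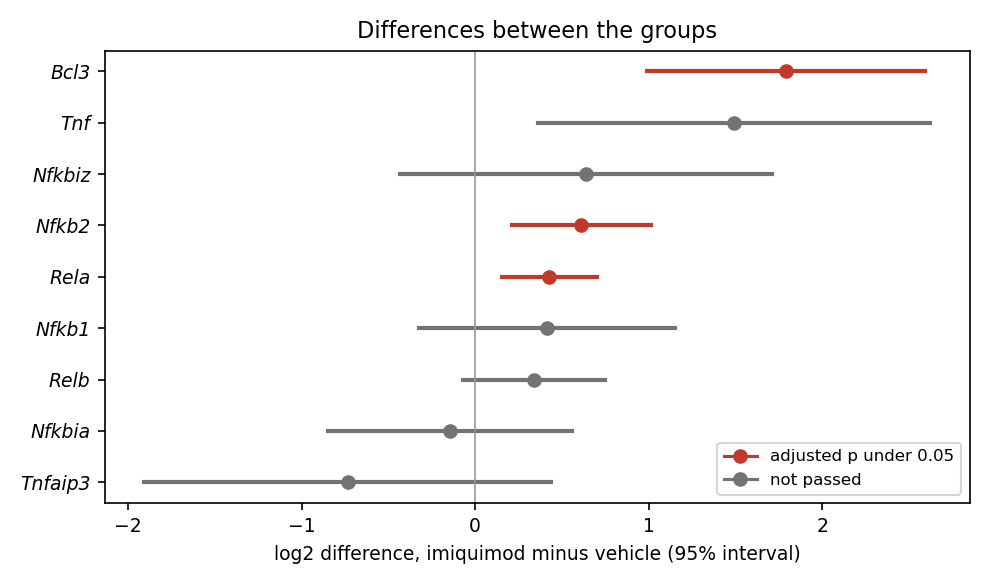
Log2 difference, imiquimod minus vehicle (horizontal axis), with its 95% interval for the 9 tested genes (vertical axis), in red where the adjusted p was under 0.05. The points run from -0.73 for Tnfaip3 to 1.79 for Bcl3, and the intervals of 5 genes cross 0.

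Promoters of 4 of the genes are shown because they hold a match to the kappaB consensus, and because 2 of the 4 genes rose and 2 did not pass. Whether NF-kappaB binds or acts at these matches in this skin was not tested. Each is the RefSeq window (GRCm38.p6) from 250 bases before to 50 bases after an annotated start site, read 5′ to 3′ on the gene's strand, with matches to the kappaB consensus on either strand in capitals; overlapping matches merge into 1 run.
Bcl3 (chr7:19822706-19823005, minus strand): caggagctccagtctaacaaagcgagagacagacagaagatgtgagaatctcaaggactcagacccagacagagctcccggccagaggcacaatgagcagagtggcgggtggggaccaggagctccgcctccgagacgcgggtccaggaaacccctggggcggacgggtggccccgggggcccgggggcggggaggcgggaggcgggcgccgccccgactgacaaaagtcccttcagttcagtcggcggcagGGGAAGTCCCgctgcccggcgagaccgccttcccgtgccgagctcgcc
Nfkb2 (chr19:46304487-46304786, plus strand): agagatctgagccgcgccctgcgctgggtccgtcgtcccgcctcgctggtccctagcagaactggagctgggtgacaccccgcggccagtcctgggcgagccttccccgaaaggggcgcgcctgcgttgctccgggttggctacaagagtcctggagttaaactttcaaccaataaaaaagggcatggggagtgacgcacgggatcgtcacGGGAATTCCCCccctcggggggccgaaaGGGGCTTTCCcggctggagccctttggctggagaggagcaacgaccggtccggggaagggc
Nfkbia (chr12:55492598-55492897, minus strand): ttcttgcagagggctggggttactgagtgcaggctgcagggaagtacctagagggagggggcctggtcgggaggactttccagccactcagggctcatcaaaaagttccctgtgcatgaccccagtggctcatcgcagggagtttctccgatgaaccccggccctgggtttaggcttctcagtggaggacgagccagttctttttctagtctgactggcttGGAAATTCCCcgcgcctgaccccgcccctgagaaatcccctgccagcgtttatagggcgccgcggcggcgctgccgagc
Tnfaip3 (chr10:19015361-19015660, minus strand): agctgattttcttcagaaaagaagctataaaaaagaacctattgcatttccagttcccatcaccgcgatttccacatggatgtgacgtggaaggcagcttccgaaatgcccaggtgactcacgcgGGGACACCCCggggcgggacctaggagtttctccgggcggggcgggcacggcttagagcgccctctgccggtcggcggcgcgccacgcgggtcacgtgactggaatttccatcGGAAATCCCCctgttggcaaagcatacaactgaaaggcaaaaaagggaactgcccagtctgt
The Bcl3 window holds GGGAAGTCCC, read on the gene's strand, with its first base at position 3 after the start site. The first of 3 Nfkb2 windows holds GGGAATTCCC from position -39 and GGGGCTTTCC from position -11. The Nfkbia window holds GGGAATTTCC on the opposite strand at position -29. The first of 2 Tnfaip3 windows holds GGGACACCCC from position -125 and GGGGATTTCC on the opposite strand at position -12, and the second, not shown, holds no match. Windows were matched for 7 of the 10 genes, 10 windows in all; Nfkb1, Relb and Nfkbiz had none. The kappaB consensus was found in 7 of the 10 windows, against 8.459% of 32851 windows of the same length in the table. By gene it was found in 5 of the 7, a count for which no share over all genes was taken. All 3 Nfkb2 windows are among the 7. Windows 2 and 3 of Nfkb2 overlap and share the same GGGACTTTCC, so they are not separate matches. No match was found in the windows of Rela and Tnf, which says only that these letters are not in those 300 bases. A looser pattern of 3 G, any 5 bases and 2 C, which takes in every kappaB consensus match, was in all 10 windows and in 50.79% of all windows. Genes with a match thus included Bcl3 and Nfkb2, which rose, and Nfkbia and Tnfaip3, whose groups overlapped. The remaining gene with a match was Rel (GGGAAATCCC from position -92), which was too dim to be tested and whose window is not shown.

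Among the subunits, Nfkb2 and Rela rose by less than 1 log2 unit, Nfkb1 and Relb did not pass, and Rel was not measurable. Nfkb2 encodes p100, which is processed to p52, the partner of RelB in the non-canonical pathway. Its probe (chr19:46386146-46386285 on mm9, plus strand) gave 1.32, 0.97 and 0.99 in imiquimod arrays 1, 2 and 3, against 0.27, 0.47 and 0.69 in vehicle arrays 1, 2 and 3; these and the values below are log2 signals relative to the array's 75th percentile. Every imiquimod array was above every vehicle array, and the difference was 0.61 ± 0.16 (SE; 1.53-fold, 95% interval 0.21 to 1.01, adjusted p = 0.0436, n = 3 each). The call was lost on leaving out any imiquimod array or vehicle array 1 or 2 (0.50 to 0.67, adjusted p = 0.0728 to 0.132). With slide as a block and within slide 1 the difference was 0.84 (adjusted p = 0.0906 and 0.209).

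Rela encodes p65, the subunit that carries the transactivation domain of the canonical p50-p65 dimer. It gave 3.08, 2.97 and 3.06 in imiquimod arrays 1, 2 and 3, against 2.48, 2.62 and 2.73 in vehicle arrays 1, 2 and 3. The groups did not overlap, and the 3 imiquimod values lay close together. The difference was 0.43 ± 0.11 (SE; 1.35-fold, adjusted p = 0.0410). A second Rela probe, printed in 10 spots (chr19:5647136-5647195 on mm9, plus strand; the first is at chr19:5647632-5647691), gave -1.13, -1.03 and -1.22 in the imiquimod arrays, against -1.69, -1.45 and -1.57 in the vehicle arrays. The 2 probes differed little in the size of the difference: in the fit over all 27415 tested probes, where 21.2% were called, they gave 0.43 and 0.44, both at an adjusted p of 0.0467. Leaving out any imiquimod array or vehicle array 1 or 2 moved the Rela difference to 0.36 to 0.46 and the adjusted p to 0.0623 to 0.132, so that it no longer passed. With slide as a block and within slide 1 it was 0.47 (adjusted p = 0.179 and 0.326).

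Nfkb1 encodes p105, the precursor of p50, and had 4 probes, all on the minus strand of chromosome 3 of mm9. The brightest (chr3:135275144-135275203), which stands for the gene, gave -0.03, 0.85 and 0.17 in imiquimod arrays 1, 2 and 3, against -0.50, 0.28 and -0.03 in vehicle arrays 1, 2 and 3. The groups overlapped, and the difference was 0.41 ± 0.30 (SE; 95% interval -0.32 to 1.15, adjusted p = 0.352); with slide as a block it was 0.05. The probes did not give the same picture. The one at chr3:135247710-135247771, averaged over 7 of its 10 spots because 3 were marked as outliers, gave 0.63, 0.41 and 0.12 in the imiquimod arrays, against -0.20, -0.34 and -0.05 in the vehicle arrays. There the groups did not overlap, and the difference of 0.58 ± 0.17 (SE) had an adjusted p of 0.0547 over all probes. The probes at chr3:135274175-135274234 and chr3:135281195-135281254 overlapped between groups, with differences of 0.21 and 0.07.

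Relb encodes the subunit that pairs with p52, and its transcript is itself a known NF-kappaB target. Its probe (chr7:20191722-20191781 on mm9, minus strand) gave 1.80, 1.48 and 1.49 in imiquimod arrays 1, 2 and 3, against 1.10, 1.14 and 1.52 in vehicle arrays 1, 2 and 3. Vehicle array 3 lay above imiquimod arrays 2 and 3, and the difference was 0.34 ± 0.17 (SE; 95% interval -0.07 to 0.75, adjusted p = 0.191). Rel encodes c-Rel, a subunit best known from lymphocytes and myeloid cells. Its only probe was not well above background on any of the 6 arrays, with a processed signal of 4.28 to 6.42 in the imiquimod arrays and 5.14 to 9.76 in the vehicle arrays, and no fold is given. The mapped position of this probe in the files covers 15 bases (chr11:23641729-23641743 on mm9), against 60 or more for each of the other probes.

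Among the regulators, Bcl3 rose and the other 3 did not pass. Bcl3 encodes a nuclear I-kappaB protein that binds p50 and p52 homodimers and can turn them into activators or stabilise them as repressors. Its probe (chr7:20393862-20393921 on mm9, minus strand) gave 3.96, 3.22 and 3.09 in imiquimod arrays 1, 2 and 3, against 1.26, 2.16 and 1.47 in vehicle arrays 1, 2 and 3. The lowest imiquimod array stood above the highest vehicle array, and the difference was 1.79 ± 0.33 (SE; 3.46-fold, 95% interval 0.99 to 2.59, adjusted p = 0.0155). Without vehicle array 1 it was 1.60 with an adjusted p of 0.0593, and within slide 1 it was 2.32 with an adjusted p of 0.119. With slide as a block the difference is the same 2.32 by construction, because slide 2 held no vehicle array. It is not a second estimate, although that fit passed (adjusted p = 0.0397).

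Nfkbia encodes I-kappaB-alpha, the inhibitor that is degraded on activation and then resynthesised from an NF-kappaB-driven promoter. Its probe, whose mapped position spans chr12:56590945-56591440 on mm9 (minus strand), gave 5.40, 5.65 and 5.04 in imiquimod arrays 1, 2 and 3, against 4.99, 5.60 and 5.94 in vehicle arrays 1, 2 and 3. The vehicle group held both the lowest and the highest value. The difference was -0.14 ± 0.29 (SE; 95% interval -0.85 to 0.56, adjusted p = 0.743). Its sign turned on leaving out imiquimod array 3 (0.017), vehicle array 3 (0.072) or both vehicle arrays marked for evaluation (0.38), which leaves vehicle array 1 alone.

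Nfkbiz encodes I-kappaB-zeta, an inducible nuclear I-kappaB protein that acts as a coactivator on a subset of targets. Its probe (chr16:55812091-55812150 on mm9, minus strand) gave 1.26, 1.91 and 0.73 in imiquimod arrays 1, 2 and 3, against -0.12, 1.17 and 0.93 in vehicle arrays 1, 2 and 3. Imiquimod array 3 lay below vehicle arrays 2 and 3, and vehicle array 1 lay far below the other vehicle arrays. The difference was 0.64 ± 0.44 (SE; 95% interval -0.43 to 1.71, adjusted p = 0.326). Tnfaip3 encodes A20, the ubiquitin-editing enzyme that shuts off signalling downstream of the tumour necrosis factor receptor. Its probe (chr10:18720994-18721053 on mm9, minus strand) gave 0.64, 1.28 and -0.10 in imiquimod arrays 1, 2 and 3, against 0.53, 1.86 and 1.62 in vehicle arrays 1, 2 and 3. The groups overlapped through vehicle array 1, and the difference was -0.73 ± 0.48 (SE; 95% interval -1.91 to 0.44, adjusted p = 0.304). It was 0.075 without the vehicle arrays marked for evaluation, which leaves vehicle array 1 alone.

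Tnf encodes tumour necrosis factor, which signals through its 2 receptors to the I-kappaB kinases. Its probe, printed in 10 spots (chr17:35336795-35336854 on mm9, minus strand), was well above background on all 6 arrays and gave -1.96, -1.99 and -2.95 in imiquimod arrays 1, 2 and 3, against -4.57, -3.02 and -3.78 in vehicle arrays 1, 2 and 3. The groups did not overlap, but imiquimod array 3 and vehicle array 2 lay close together. The difference was 1.49 ± 0.46 (SE; 2.81-fold, 95% interval 0.36 to 2.62), and its adjusted p of 0.0649 did not pass. It passed without vehicle array 2 (1.88, adjusted p = 0.0300) and after normexp background correction (0.95, adjusted p = 0.0446). It also passed without both vehicle arrays marked for evaluation (2.27), but that left vehicle array 1, the lowest for Tnf, alone in its group. With slide as a block and within slide 1 it was 1.83 (adjusted p = 0.180 and 0.262). The SD of the 10 spots on 1 array was 0.068 to 0.21, smaller than the SD between arrays of a group (0.56 in imiquimod and 0.78 in vehicle).

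The spread within groups followed single arrays. Among the 3 vehicle arrays, array 1 was the lowest for 9 of the 9 tested genes, while it was the lowest for 26.1% of all tested genes. It was also the only vehicle array not marked for evaluation. Among the 3 imiquimod arrays, array 3 was the highest for 0 of the 9, while it was the highest for 37.5% of all tested genes. With each gene centred on its 6-array mean, the regulators Tnfaip3, Nfkbia and Nfkbiz stood at -1.08, -0.40 and -0.25 in imiquimod array 3, and at 0.31, 0.22 and 0.93 in imiquimod array 2. In vehicle array 1 they stood at -0.44, -0.45 and -1.10, and in vehicle array 2 at 0.89, 0.16 and 0.19. The groups overlapped for these 3 genes, whereas Nfkb2, Rela and Bcl3 were above their mean in all 3 imiquimod arrays and below it in all 3 vehicle arrays. The 9 genes share the same 6 arrays and the same scaling, so they are not separate observations of an array.

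**Figure D3:**
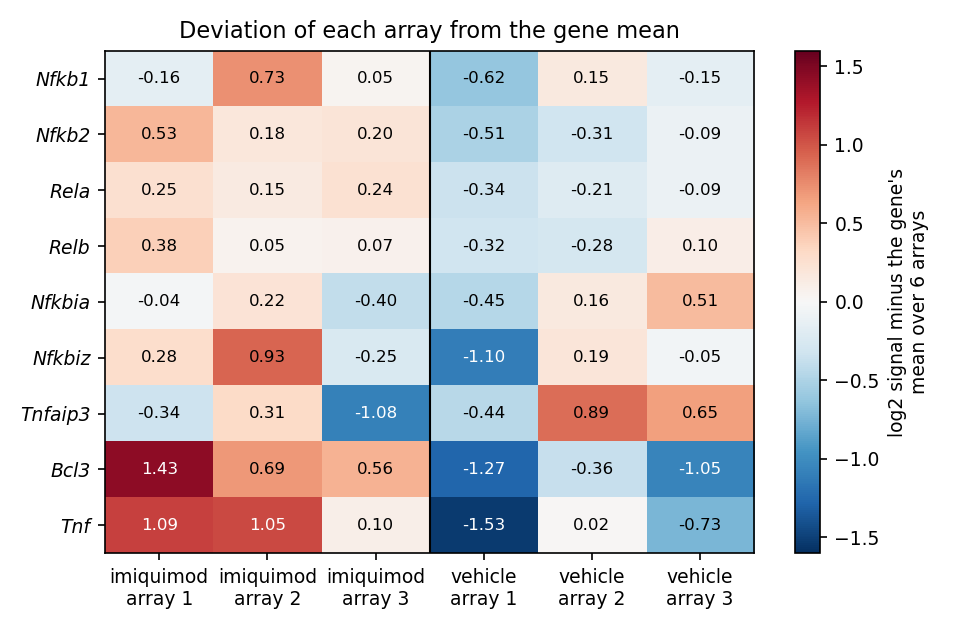
Log2 signal of each gene on each array minus that gene's 6-array mean, for the 9 tested genes (rows) and the 3 imiquimod arrays left of the 3 vehicle arrays (columns); red is above and blue below the mean. Vehicle array 1 has the lowest value of the vehicle arrays in every row, and imiquimod array 3 has the highest imiquimod value in no row.

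Genes that carry signals to the I-kappaB kinases, or tune them, were called at a share near that of all tested genes (23.6%). Of 43 tested kinases, adaptors, ubiquitin enzymes and other I-kappaB proteins, 8 rose, 1 fell and 34 did not pass, with a median difference of 0.23. Tradd, the adaptor of the tumour necrosis factor receptor, averaged 3.50 in imiquimod and 2.46 in vehicle arrays (difference 1.04 ± 0.11 SE, adjusted p = 0.00389). Irak4, the kinase that MyD88 recruits below Toll-like and interleukin-1 receptors, averaged -2.53 in imiquimod and -3.63 in vehicle arrays (1.10 ± 0.18 SE, adjusted p = 0.0106). Otulin, a deubiquitinase for linear ubiquitin chains, differed by 0.64 ± 0.11 (SE, adjusted p = 0.0118). The gene that fell was Card14, a keratinocyte scaffold for NF-kappaB activation whose human gain-of-function variants are known in psoriasis; it averaged 0.44 in imiquimod and 1.61 in vehicle arrays (-1.17 ± 0.25 SE, adjusted p = 0.0243). The 3 subunits of the I-kappaB kinase complex, named for their role after their values were seen, did not pass: the differences were 0.03 for Ikbkb, -0.08 for Chuk and -0.18 for Ikbkg. Of the other I-kappaB genes, named on the same ground, Nfkbid differed by 1.25 (adjusted p = 0.0530), Nfkbie by 0.66 (adjusted p = 0.0861) and Nfkbib by -0.07 (adjusted p = 0.700).

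Ligands and receptors of the tumour necrosis factor family moved in both directions: of 16 tested genes, 5 rose, 3 fell and 8 did not pass, with a median of 0.18. The shares over all tested genes were 13.1% higher and 10.5% lower. Ltb, a subunit of lymphotoxin and a ligand of the non-canonical pathway, averaged 0.99 in imiquimod and -0.43 in vehicle arrays (1.42 ± 0.12 SE, adjusted p = 0.00216). Tnfrsf1b, the second tumour necrosis factor receptor, found mainly on immune and endothelial cells, averaged -0.22 in imiquimod and -2.04 in vehicle arrays (1.82 ± 0.23 SE, adjusted p = 0.00567). Tnfrsf1a, the broadly expressed first receptor, named for its role, averaged 4.07 in imiquimod and 3.83 in vehicle arrays (0.24 ± 0.13 SE, adjusted p = 0.237). Also higher were Tnfsf14 (1.54), Tnfsf13b (1.04), the B cell survival factor BAFF, and Adam17 (0.51), the protease that sheds tumour necrosis factor from the cell surface. Lower were Rhbdf2 (-0.70 ± 0.09 SE, adjusted p = 0.00601), which brings ADAM17 to the surface, Tnfrsf4 (-0.77 ± 0.16 SE, adjusted p = 0.0206) and Tnfrsf13c (-3.63 ± 0.79 SE, adjusted p = 0.0254), the BAFF receptor. Tnfrsf13c was well above background on 1 of the 3 imiquimod arrays and on 3 of 3 vehicle arrays.

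Of 32 tested target genes of NF-kappaB, 10 rose, 1 fell and 21 did not pass, with a median difference of 0.70. The shares over all tested genes were 13.1% higher and 10.5% lower. Vcam1, an endothelial adhesion molecule, averaged 1.16 in imiquimod and -1.13 in vehicle arrays (2.29 ± 0.20 SE, adjusted p = 0.00230). Mmp9, a matrix metalloproteinase abundant in neutrophils, differed by 2.80 ± 0.26 (SE, adjusted p = 0.00266), and Tnfaip2 by 1.54 ± 0.15 (SE, adjusted p = 0.00275). Ccl20, a chemokine for cells that carry CCR6, was the 1 that fell, averaging -3.71 in imiquimod and -0.60 in vehicle arrays (-3.11 ± 0.59 SE, adjusted p = 0.0172). Relb is in this list as well as among the 10 genes, and Nfkbie, Traf1 and Birc3 are also in the list of kinases and adaptors.

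Of 12 tested genes tied to I-kappaB-zeta in keratinocytes or macrophages, 8 rose, 1 fell (Ccl20, as above) and 3 did not pass, with a median of 3.69. The shares over all tested genes were 13.1% higher and 10.5% lower. Lcn2, an iron-binding antimicrobial protein, averaged 1.17 in imiquimod and -3.29 in vehicle arrays (4.46 ± 0.34 SE, adjusted p = 0.00178). The interleukin-36 genes Il1f6 (interleukin-36 alpha) and Il1f9 (interleukin-36 gamma) differed by 4.03 ± 0.38 and 2.16 ± 0.21 (SE; adjusted p = 0.00266 and 0.00307). Il19 and Cxcl5 were not well above background on any vehicle array, so their differences are bounds (at least 7.92-fold and 44.6-fold higher, adjusted p = 0.00401 for both; named for this limit after their values were seen), and with both at their bound the list's median was 3.51. This median stood beside a difference of 0.64 in Nfkbiz itself that did not pass. Neutrophil markers S100a8 and S100a9 are among the 12 genes. So are Cxcl1, Cxcl2, Ccl20 and Il6 of the target genes and Zc3h12a of the kinases and adaptors, so the lists are not separate readings. Lcn2, Il1f6, S100a8 and S100a9, all among the 8 that rose, are also in the list known to rise in imiquimod-treated skin. Their rise is therefore not a separate result. Il19 and Cxcl5, also among the 8, were tested through the imiquimod arrays alone.

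**Figure D4:**
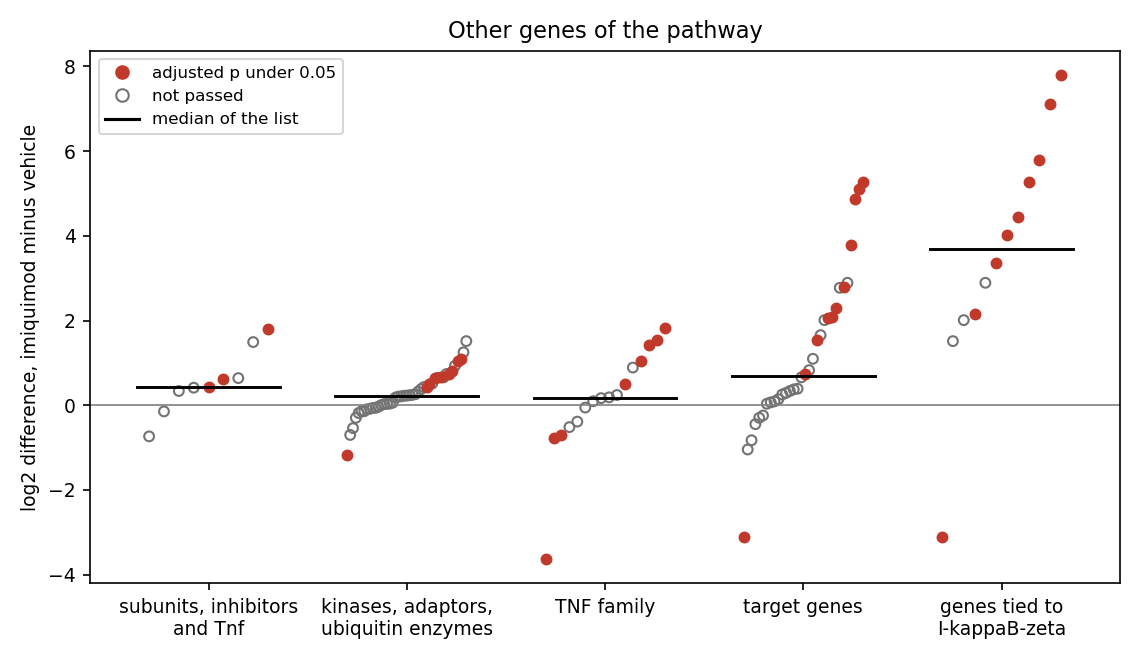
Log2 difference, imiquimod minus vehicle (vertical axis), of every tested gene in 5 lists (horizontal axis, genes in rising order within a list); filled red points had an adjusted p under 0.05, open points did not pass, and black bars are list medians; Il19 and Cxcl5 are drawn at their fitted values, not their bounds. The medians are 0.43, 0.23, 0.18, 0.70 and 3.69 from left to right.

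Markers of leukocytes in general, neutrophils and macrophages were higher in the imiquimod arrays in most cases, while those of T cells and dendritic cells mostly did not pass. Over all tested genes, 13.1% were higher and 10.5% lower. All 10 tested pan-leukocyte markers rose, the brightest being Cd52 (2.00 ± 0.32 SE) and Coro1a (1.97 ± 0.33 SE). Their summed signal was 92.8 to 132.6 times the array's 75th percentile in the imiquimod arrays and 17.7 to 38.8 times in the vehicle arrays. Of 10 tested neutrophil markers 9 rose, with a summed signal of 789 to 908 in imiquimod and 4.45 to 44.6 in vehicle arrays. Most of this sum came from S100a8 and S100a9, the 2 brightest of the list. Both are also in the list known to rise in imiquimod-treated skin and in the list tied to I-kappaB-zeta. The sum is therefore not a separate measure of neutrophil number. Elane was not above background on any array. Ngp, among the 9 that rose, was not well above background on any vehicle array. It was tested through the imiquimod arrays alone, so its difference is a bound (at least 16.0-fold higher). Of 11 macrophage markers 6 rose, with sums of 320 to 380 in imiquimod and 93.2 to 199 in vehicle arrays. Lyz2, the brightest of them, made up most of these sums. Of 10 tested T cell markers 1 rose, 1 fell and 8 did not pass (median -0.59), and of 9 dendritic cell markers 0 rose, 2 fell and 7 did not pass (median -0.86). Hair follicle markers went the other way, with 8 of 10 lower and sums of 0.850 to 1.36 in imiquimod and 105 to 1435 in vehicle arrays, vehicle array 3 being the lowest of the vehicle arrays. Krt25 and Krt34, among the 8, were not well above background on any imiquimod array and were tested through the vehicle arrays alone. Their differences are bounds (at least 2363-fold and 549-fold lower). Epidermal keratinocyte markers, which identify the tissue as skin, were above background on every array, and 5 of 10 rose, with the 2 brightest, Krt10 (0.52 ± 0.15 SE, adjusted p = 0.0537) and Lor (-0.23 ± 0.14 SE, adjusted p = 0.273), not passing. The part of these cell types in the differences of Bcl3, Nfkb2, Rela and Tnf was not tested.

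The genes most like Tnf and Nfkbiz across the arrays were sought by the root mean square distance between centred log2 values over the 6 arrays, among 14895 genes with a symbol. The 3 nearest to Tnf were Nts (distance 0.16), Tmem252 (0.20) and Zc3h12a (0.24), the last encoding Regnase-1, an RNase that degrades inflammatory transcripts. Their differences between the groups, 1.34, 1.36 and 1.51, lie near that of Tnf because the genes were chosen for their likeness to it. The 3 nearest to Nfkbiz were Lamtor2 (distance 0.24), Tmem79 (0.26) and Nod2 (0.27), the last encoding an intracellular sensor of bacterial peptidoglycan that signals to NF-kappaB. Their differences, 0.48, 0.72 and 0.71, follow from the choice in the same way.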

How the data were processed

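Whole-skin RNA of 6 samples was hybridised singly to Agilent mouse arrays labelled with Cy3, per the labels. The authors deposited 1 scanner file per sample, holding spot intensity on a linear scale, background-subtracted and detrended by Agilent Feature Extraction 10.7.3.1 per the file headers; version 9.1 is given in the submitters' processing notes. The authors' value table holds log2 values of unstated normalization; its direction followed the titles once each scanner file was matched to its column by rank correlation over 24248 probes. It was used for that match and as an alternative.

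Control spots and 322 of 43379 other spots with outlier flags were left out, spots of a probe were averaged, and the log2 processed signal was taken minus each array's 75th percentile (a processed signal of 861 to 935 in imiquimod and 941 to 1106 in vehicle arrays). Between 61.6% and 67.8% of spots were well above background; precision is limited by the 3 arrays a group. Probes well above background on at least 3 of 6 arrays were tested, and a gene was its tested probe of highest mean. Differences are imiquimod minus vehicle, from lmFit and eBayes in limma 3.58.1 (R 4.3.3), two-sided, with Benjamini-Hochberg adjustment over all tested genes or probes at 0.05. Intervals are 95% and not adjusted. Of all genes tested, 6937 had an unadjusted p under 0.05, 4 of them among the 10 genes described. Probe positions are on mm9, per the file headers, and no annotation of that build was used here. Promoter windows come from RefSeq (GRCm38.p6).

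The fit was tested on simulated data with known changes. The 10 genes, the pathway lists and the marker lists were chosen with earlier results of these data known. Of the 4 pathway lists the text names the 3 genes of smallest p that passed in each direction, or all where 5 or fewer did; of marker lists, the 2 of highest mean signal; for Tnf and Nfkbiz, the 3 genes of nearest profile. Further marker genes are named for a signal at background or for going against the genes named, after their values were seen. Alternatives changed the normalization, background correction, filter, probe summary, variance model, treatment of outlier flags, slide, replicate block, source of values and the arrays included. One marker gene is not reported here.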

Additional observations from a re-analysis of the deposited data

How the results depend on the processing

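Over 18 alternative analyses, the number of the 10 genes that fell was 0 in each, and the number that rose ranged from 0 to 3. It was 1 after quantile normalization, with no filter on dim probes, with slide as a block and in the deposited value table. In the whole table these 4 settings gave 2162, 1564, 541 and 2164 genes higher, in the same order, against 2330 in the main analysis. Leaving out single arrays gave 0 to 3 of the 10 genes. Nfkb1, Relb and Nfkbiz did not pass in any of the 18. The differences of Nfkb2, Rela, Bcl3 and Tnf were positive in each of the 18, while the calls of Nfkb2, Rela and Bcl3 were lost in 12, 13 and 3 and Tnf passed in 3. The difference in Nfkbia turned positive without imiquimod replicate 3 (0.017), without vehicle replicate 3 (0.072) and without both arrays marked for evaluation (0.38); over the analyses that leave out 1 array it ranged from -0.41 to 0.072. The difference in Tnfaip3 turned positive without the arrays marked for evaluation (0.075). Between arrays of the same replicate number, deviations from the group mean correlated at -0.087, 0.068 and 0.085. Arrays of unlike numbers were not compared in this way, so these values cannot settle whether the numbers mark pairs. With the replicate number as a block, 0 of the 10 genes rose, 1164 genes of the whole table were higher and 1043 lower, 2 kinases and adaptors rose and 0 fell, 2 genes of the tumour necrosis factor family rose, and 0 target genes and 0 genes tied to I-kappaB-zeta fell.

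With slide as a block, 541 genes of the whole table were higher and 518 lower, with 1 kinase or adaptor higher and 0 lower, 2 tumour necrosis factor family genes higher and 0 lower (median 0.36), 3 target genes higher and 0 lower, and 0 genes tied to I-kappaB-zeta lower. Within slide 1, 7 genes were higher and 1 lower, with 0 called in the first 3 lists (tumour necrosis factor family median 0.36) and 1 higher and 0 lower of those tied to I-kappaB-zeta. With no filter on dim probes, the median of all genes was 0.081, 5 kinases or adaptors and 2 tumour necrosis factor family genes rose, and the I-kappaB-zeta median was 2.09. Without the arrays marked for evaluation, which leaves vehicle array 1 alone in its group and assumes that it varies like the others, 2 tumour necrosis factor family genes rose (median 0.34), 0 target genes fell (median 1.09) and 0 genes tied to I-kappaB-zeta fell (median 4.84). The number of target genes that fell was 2 after quantile normalization, after normexp (I-kappaB-zeta median 2.31), with the filter on all 6 arrays (target median 0.36), when a gene's probes were averaged, with a variance trend and in the value table. Leaving out single arrays gave 944 to 2514 genes higher and 745 to 2215 lower in the whole table; in the same order, the lists gave 2 to 9 and 0 to 3 kinases and adaptors (median 0.16 to 0.27), 2 to 5 and 1 to 3 tumour necrosis factor family genes (median 0.13 to 0.27), 6 to 13 and 0 to 2 target genes (median 0.52 to 0.85), and 8 to 10 and 0 to 1 genes tied to I-kappaB-zeta (median 3.60 to 4.31). The causes of these shifts were not tested, beyond the fewer arrays or different gene sets that some alternatives use by construction.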

Other observations

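Markers of other cell types that whole skin holds were read from the same fit, in which 13.1% of all tested genes were higher and 10.5% lower. Of 7 mast cell markers 6 rose, with Mcpt4 and Cma1, both mast cell proteases, higher by 1.24 ± 0.30 and 1.78 ± 0.33 (SE). Of 7 endothelial markers 5 rose, among them Vwf (1.35 ± 0.23 SE) and Emcn (1.46 ± 0.18 SE), and for all 7 every imiquimod array was above every vehicle array. Of 7 fibroblast markers 5 rose; Col1a2 was higher by 0.45 ± 0.13 (SE, adjusted p = 0.0482), while Dcn differed by 0.01 (adjusted p = 0.979). Of 10 T cell markers 1 rose and 1 fell, with a median difference of -0.59. Thy1 differed by 0.15 (adjusted p = 0.597) and Cd5 was higher by 1.55 ± 0.15 (SE). The marker that fell was Lck (-1.09 ± 0.22 SE, adjusted p = 0.0218).

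Among B cell markers, Cd79b rose by 4.21 ± 0.40 (SE), while Ms4a1, Pax5 and Blk were not above background on any array. Cd79a was above background on 2 vehicle arrays and on no imiquimod array, too few to be tested. Of 9 dendritic cell markers 2 fell, and neither Cd74 (-0.88 ± 0.35 SE) nor H2-Ab1 (-0.86 ± 0.32 SE) passed. Over all tested genes, 10.5% were lower and 13.1% higher. Of the adipocyte, skeletal muscle and melanocyte markers, 1 of 7, 1 of 8 and 1 of 5 fell and none rose. The brightest of these lists were Fabp4 (-0.34) and Cidec (-0.41), Myh4 (0.38) and Acta1 (-0.68), and Dct (-1.52) and Pmel (-1.34), none of which passed. The brightest hair follicle markers were Krt27 and Krt71, lower by 8.07 ± 1.08 and 12.0 ± 0.82 log2 units (SE), and the brightest neutrophil and macrophage markers were S100a8 (7.11 ± 0.82 SE higher), S100a9, Lyz2 (1.20 ± 0.29 SE higher) and Adgre1 (2.74 ± 0.45 SE higher).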
